A study of Sus scrofa with 33 samples.

Results

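Pigs carried through pulmonary banding with or without a modified Glenn shunt were compared on the whole course of each animal, taken as its last biopsy minus its own baseline. The comparison was defined by the labels alone and set the last biopsy of every pig against its baseline, 22 of 33 arrays. The model was fitted to all 33 arrays, so the biopsies taken in between also entered the errors and p-values. A fit to the 22 arrays alone called no probe set. The shunt arm had 6 pigs, the control arm had 5, and each pig gave 1 change per probe set. Every probe set of the Affymetrix pig array that is not a control was included, 23999 of 24123.

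Biopsies came from the right ventricular free wall of pigs (Sus scrofa). In both arms the baseline biopsy was followed by 120 min of pulmonary banding, a narrowing of the pulmonary artery that raises the load on the right ventricle until it fails, and by a biopsy at that point. Pigs of the shunt arm then had a further 60 min of banding with a modified Glenn shunt, and pigs of the control arm had a further 60 min of banding alone. Allocation was random and took place after the biopsy at 120 min, so the shunt acted in the later interval only. All 11 pigs were banded, and age, sex and breed are not in the labels.

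A Glenn shunt leads blood from the superior vena cava straight into the pulmonary artery, so that this blood bypasses the right ventricle. Acute overload of a ventricle is known to induce natriuretic peptides, strain-sensed proteins of the sarcomere and intercalated disc, immediate early transcription factors, chaperones and inflammatory mediators. The working ventricle draws most of its energy from mitochondrial oxidation of fatty acids, whose transcripts often decline as a ventricle fails.

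Values are log2 RMA values, that is, normalised hybridisation signals on a log2 scale, and a change is a difference of log2 values within a pig. A difference between the arms is the mean change of the shunt pigs minus that of the control pigs, so a positive one means a higher change with the shunt. Arrays hold no read depth, and the number of pigs limits the precision: the median standard error (SE) of a difference was 0.14. The ventricular myosin heavy chain gene MYH7, a defining marker of the labelled tissue, read no lower than 14.87 at the last biopsy of any shunt pig and no lower than 14.98 at that of any control pig, against a highest value of 15.2 in the table.

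The arrays fell into 3 sets by their spiked-in control RNAs, which are added to each sample during labelling and hybridisation. Shunt pigs 1 to 4 (12 arrays) had a mean of 3.38 for the Dap spike, shunt pigs 5 and 6 (6 arrays) 8.34, and the control pigs (15 arrays) 7.59. No set held pigs of both arms, so in everything that follows the arm and the array set cannot be told apart. The RNA quality measure did not separate the arms. The change in the difference between the 3' and 5' probe sets averaged 0.07 ± 0.19 in shunt pigs and 0.06 ± 0.12 in control pigs for GAPDH (SD, n = 6 and 5, exact permutation p = 0.961, two-sided). The shunt arm minus the control arm was 0.03 for actin (exact permutation p = 0.827) and -0.15 for EF1A (exact permutation p = 0.548).

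The whole course differed between the arms for 1 of 23999 probe sets, or 0.00417%, that of RBM3, by limma with Benjamini-Hochberg adjustment at 0.05. RBM3 encodes an RNA-binding protein that is induced by mild cold and supports translation. Its transcript rose in both arms, 2.74-fold in shunt pigs (1.45 ± 0.08, SE) and 1.57-fold in control pigs (0.65 ± 0.09). The change was larger in shunt pigs by 0.80 ± 0.12 (95% confidence interval 0.55 to 1.05), with an adjusted p of 0.0200 in limma. The next smallest adjusted p of any probe set was 0.0925. At an unadjusted p under 0.05 there were 2922 probe sets (12.2%), 1457 with a positive and 1465 with a negative difference.

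In the 6 shunt pigs RBM3 changed by 1.76, 1.70, 1.54, 1.07, 1.12 and 1.54, and in the 5 control pigs by 0.60, 0.79, 0.62, 0.63 and 0.63. Every shunt pig lay above every control pig, and the control pigs lay close together. The levels at the start differed the other way. At baseline RBM3 read 9.89, 10.04, 9.70, 9.94, 10.39 and 9.85 in the shunt pigs, against 10.62, 10.42, 10.61, 10.40 and 10.52 in the control pigs. At the last biopsy it read 11.66, 11.74, 11.23, 11.01, 11.50 and 11.39 in the shunt pigs, against 11.22, 11.20, 11.23, 11.03 and 11.15 in the control pigs. The arms did not overlap at baseline and did overlap at the end.

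The baseline difference in RBM3 was -0.55 (adjusted p = 0.113 in limma) and that at the last biopsy 0.26 (adjusted p = 0.335 in limma). The call for RBM3 rested on most of the pigs: it was lost when any of 7 of the 11 pigs was left out (shunt pig 1, 2, 3 or 6, or control pig 1, 4 or 5), with adjusted p-values up to 0.146 in limma and differences of 0.74 to 0.79 in these 7 fits. In a fit without the pig block the adjusted p of RBM3 was 0.315 in limma. In a fit to the 22 baseline and last arrays alone it was 0.156 in limma, and no probe set was called. CIRBP, the other cold-inducible RNA-binding protein of the array, fell in both arms, by 1.38 ± 0.14 in shunt pigs and 1.13 ± 0.15 in control pigs (SE). Its difference between the arms was -0.25 ± 0.20 (adjusted p = 0.690 in limma).

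**Figure D1:**
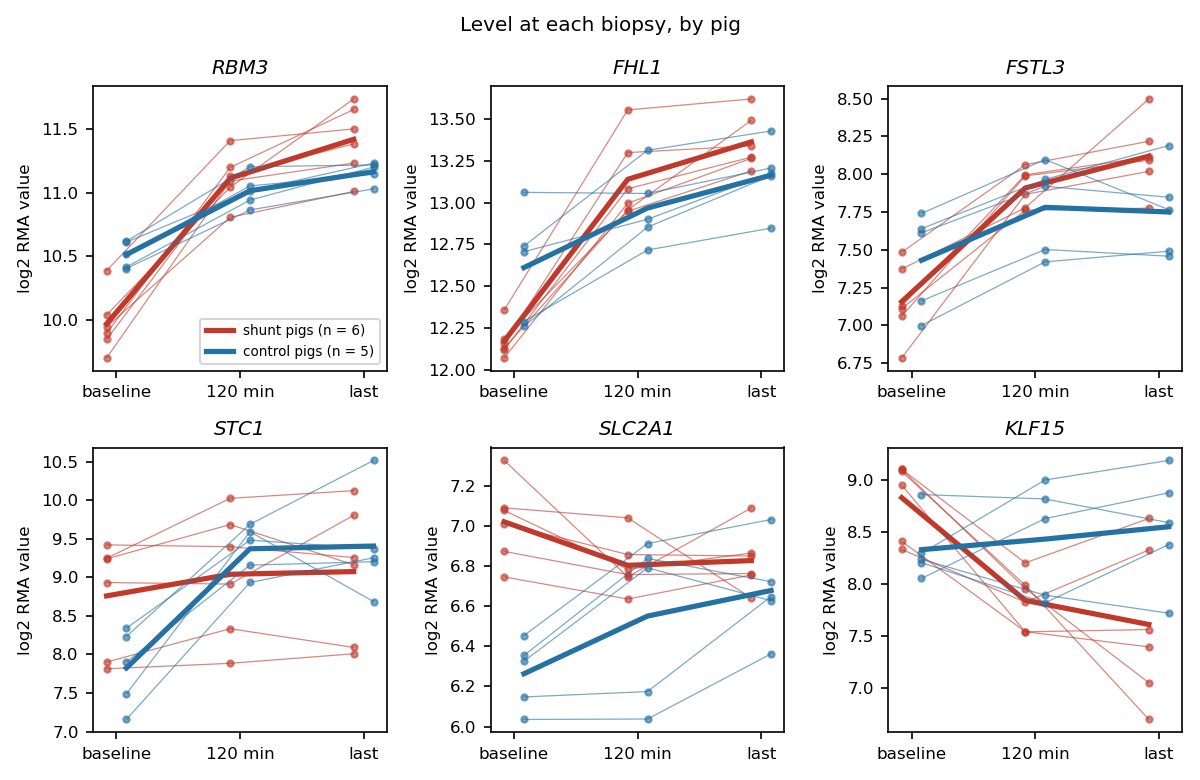
Log2 RMA values (vertical axes) of 6 genes at baseline, at 120 min and at the last biopsy, with a thin line per pig and a thick line for the mean of each arm (red, 6 shunt pigs; blue, 5 control pigs). RBM3 averaged 9.97 in shunt pigs and 10.51 in control pigs at baseline, and 11.42 in shunt pigs and 11.17 in control pigs at the last biopsy.

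Since fewer than 5 genes passed either way, the 8 of smallest p for a positive and the 8 for a negative difference are described, and of these 16 only RBM3 passed the adjusted threshold. The background for them is that 561 of 6765 genes (8.29%) had a positive and 438 (6.47%) a negative difference at an unadjusted p under 0.05. In 8 of the 16 the changes of the shunt pigs and of the control pigs did not overlap. Over all probe sets, every shunt pig lay above every control pig for 85 (0.354%) and below for 126 (0.525%). The 16 were selected on this same difference, so a higher share without overlap among them is built in.

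FHL1 is a LIM-domain protein of the sarcomere that takes part in the sensing of strain. Its transcript rose in both arms, by 1.15, 1.36, 1.18, 1.26, 1.00 and 1.19 in the shunt pigs, against 0.47, 0.69, 0.90, 0.56 and 0.15 in the control pigs. The arms did not overlap, and the difference of FHL1 was 0.64 ± 0.12 (SE, adjusted p = 0.0925 in limma). FSTL3 encodes a secreted follistatin-like glycoprotein that binds activins and myostatin. FSTL3 rose by 0.96 ± 0.09 with the shunt and by 0.32 ± 0.10 in controls (SE), with single-pig changes of 0.66 to 1.23 in shunt pigs and 0.02 to 0.55 in control pigs. These ranges did not overlap either (difference 0.64 ± 0.13, adjusted p = 0.0925 in limma). The other FSTL3 probe set, which was dimmer, gave a difference of 0.34.

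CCNJ, a cyclin, rose by 0.94 with the shunt and by 0.35 in controls. NOB1, an endonuclease that matures the RNA of the small ribosomal subunit, rose by 1.05 in shunt pigs, while its change of 0.22 in control pigs did not pass. The other 3 genes with a positive difference passed the adjusted test within the shunt arm and missed it within the control arm. CD200, a surface glycoprotein that restrains myeloid cells through its receptor, changed by 0.18 to 1.31 in shunt pigs and by -0.43 to 0.21 in control pigs. LRRN3, a neuronal leucine-rich repeat membrane protein with a dim signal (mean level 5.18), changed by 0.02 to 1.55 in shunt pigs and by -0.31 to 0.06 in control pigs. POGK, a gene with a KRAB domain derived from a pogo transposable element, changed by 0.28 to 0.80 in shunt pigs and by -0.37 to 0.29 in control pigs. The ranges of CCNJ, NOB1, CD200, LRRN3 and POGK overlapped between the arms. Dimmer probe sets gave smaller differences between the arms, 0.39 and 0.43 for NOB1 and 0.17 for POGK.

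Negative differences were of several kinds. STOX1, a winged-helix DNA-binding protein, fell most, by 2.43 ± 0.15 with the shunt and by 1.18 ± 0.17 in controls (SE). Its changes were -2.67, -2.42, -2.31, -2.91, -2.29 and -1.97 in the shunt pigs, against -1.26, -1.43, -1.69, -0.65 and -0.87 in the control pigs. The arms did not overlap, and the difference of STOX1 was -1.25 ± 0.23 (adjusted p = 0.0925 in limma). STOX1 was dim, with a mean level of 4.31, and stood higher at baseline in shunt pigs (5.78 ± 0.31) than in control pigs (4.88 ± 0.42, SD).

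STC1, which encodes the glycoprotein hormone stanniocalcin 1, changed by 0.32 ± 0.18 in the shunt arm, which did not pass, and rose 2.99-fold in the control arm (1.58 ± 0.19, SE). Single shunt pigs changed by -0.08, 0.88, 0.87, -0.16, 0.19 and 0.19, and single control pigs by 1.20, 2.28, 1.30, 1.03 and 2.10. The lowest STC1 change of a control pig lay above the highest of a shunt pig. The 2 other STC1 probe sets, which were dimmer, gave 0.18 and -0.32 for the difference between the arms, so they did not have the same sign.

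SLC2A1 encodes the glucose transporter GLUT1, the carrier of basal glucose uptake. Its change of -0.19 ± 0.09 in the shunt arm did not pass, while it rose by 0.41 ± 0.10 in the control arm (SE). The SLC2A1 changes were 0.01, -0.16, -0.21, -0.24, -0.45 and -0.11 in the shunt pigs, against 0.37, 0.58, 0.50, 0.30 and 0.33 in the control pigs, with no overlap. It was the only one of the 16 genes whose baseline level differed at the adjusted threshold, higher in shunt pigs by 0.76 (adjusted p = 0.0450 in limma), and its levels at the last biopsy were 6.83 ± 0.15 in shunt pigs and 6.68 ± 0.24 in control pigs (SD). Over all probe sets 5 (0.0208%) differed between the arms at baseline.

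KLF15, a transcription factor induced by glucocorticoids that restrains hypertrophic growth and governs metabolism in the heart, fell by 1.22 ± 0.22 in the shunt arm (SE). The change in the control arm was 0.22 ± 0.25. Single shunt pigs ranged from -2.39 to 0.00 for KLF15, with a median of -1.21, and single control pigs from -0.52 to 0.90, with a median of 0.17. KLF15 thus overlapped between the arms and had the widest spread between pigs of the 16 genes (SD 0.91 in shunt pigs and 0.63 in control pigs). ANKRD37, an ankyrin repeat protein whose gene is a target of hypoxia-inducible factor, fell by 0.87 in the shunt arm, with single pigs at -1.50 to -0.50. In the control pigs ANKRD37 changed by -0.43 to 0.69. CXXC5, a zinc finger protein that dampens Wnt signalling, fell by 0.63 with the shunt, against a change of 0.02 in controls. The other CXXC5 probe sets, which were dimmer, gave differences of -0.43 and -0.08. LMO4, a LIM-only transcriptional cofactor, fell in both arms, by 1.37 in shunt pigs and 0.47 in control pigs. Another LMO4 probe set gave a difference of 0.32, opposite in sign, while the remaining one gave -0.85. MSANTD3 fell by 0.99 in the shunt arm, and its change of -0.27 in the control arm did not pass.

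**Figure D2:**
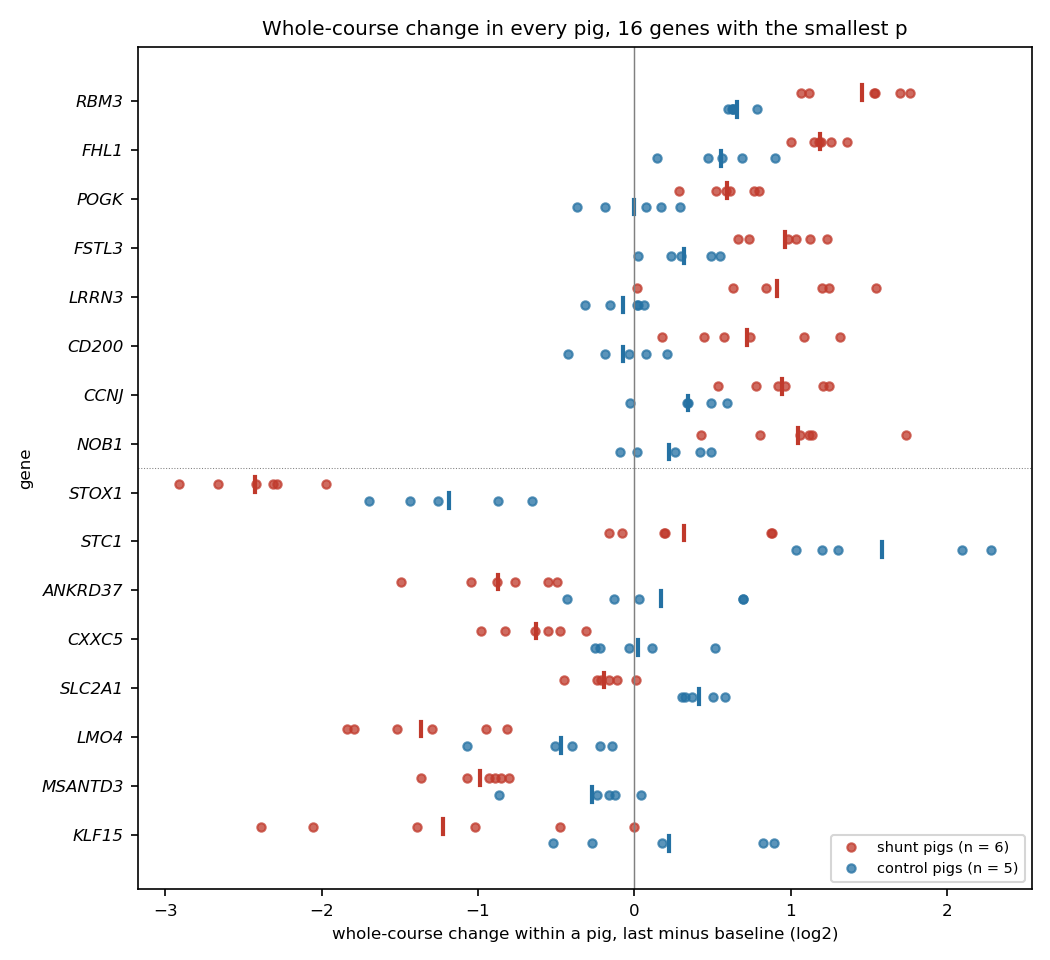
Whole-course change of each pig (last minus baseline, log2, horizontal axis) for the 16 genes with the smallest p, the 8 positive differences above the dotted line and the 8 negative ones below it. Red points are 6 shunt pigs, blue points 5 control pigs and bars the means; in RBM3, FHL1, FSTL3, STOX1, STC1, ANKRD37, CXXC5 and SLC2A1 the arms did not overlap.

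The whole-course difference is the sum of the difference built up in the first interval, when both arms had the same banding, and that of the later interval, when only 1 arm had the shunt. For RBM3 the first interval held 0.64 ± 0.12 and the later interval 0.16 ± 0.12 (SE), so 80.4% of the difference was present before the shunt. For FHL1 the first interval held 0.61 ± 0.12 and the later 0.03 ± 0.12, and for STC1 they held -1.27 ± 0.26 and 0.00 ± 0.26. In 15 of the 16 genes the first interval made up over 50% of the difference, with a median share of 72.8% over the 16. POGK was the exception at 36.7%, with 0.22 ± 0.12 in the first interval and 0.38 ± 0.12 in the later one.

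No probe set passed for the difference between the arms in the first interval (0%, smallest adjusted p 0.203 in limma), and 1655 (6.90%) had an unadjusted p under 0.05. None passed in the later interval either (0%, smallest adjusted p 1.00 in limma), where 737 (3.07%) had an unadjusted p under 0.05. All 16 genes had a baseline difference opposite in sign to the difference in change, which follows in part from baseline entering every change with a minus sign. At the last biopsy 15 of the 16 had a difference in level of the same sign as the difference in change, SLC2A1 being the exception, and none of the 16 passed the adjusted threshold there.

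**Figure D3:**
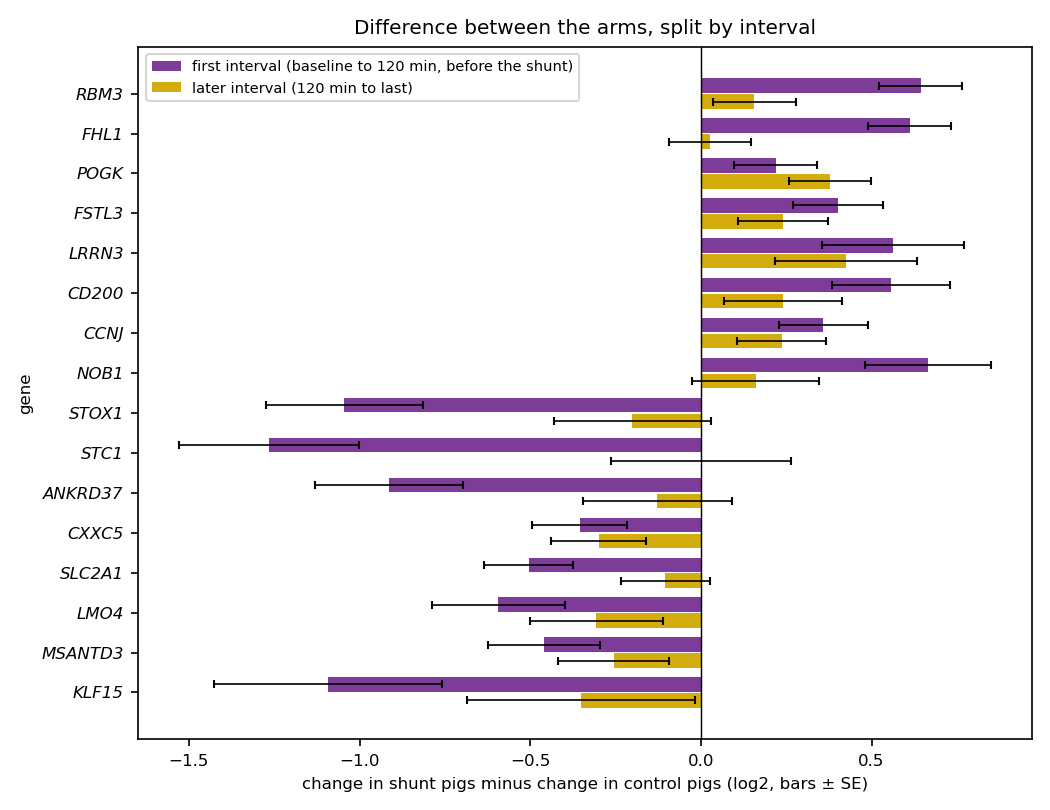
Difference between the arms (shunt minus control, log2, horizontal axis) for the 16 genes, split into the first interval, from baseline to 120 min (purple), and the later interval, from 120 min to the last biopsy (yellow); whiskers are SE. The purple bar is the longer in every gene but POGK.

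Over the whole set of genes the course was larger in the shunt arm. Within the shunt arm 1129 genes (16.7%) rose and 1596 (23.6%) fell, and within the control arm 297 (4.39%) rose and 378 (5.59%) fell, in limma. The arms differ in their number of pigs, 6 and 5, and these counts are no test of a difference between them. The median absolute change over 6765 genes was 0.19 with the shunt and 0.11 in controls. Taken pig by pig, it ran from 0.162 to 0.334 in shunt pigs and from 0.140 to 0.203 in control pigs. The 2 lowest shunt pigs, 4 and 5, lay within the range of the control pigs. The 613 genes that passed in both arms all changed in the same direction, and 501 of them had the larger absolute change in the shunt arm. Over all 6765 genes 4888 did.

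Among the 999 genes with an unadjusted p under 0.05 for the difference, direction was mixed. Selection on the difference favours opposite signs, so these genes cannot be compared on direction with those that passed in both arms. By fitted means, 385 of the 561 positive ones were up in both arms and 167 were up with the shunt and down in controls. Of the 438 negative ones, 335 were down in both arms and 95 were down with the shunt and up in controls. The larger absolute change was that of the shunt arm in 914 of the 999, which were selected on the difference itself.

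**Figure D4:**
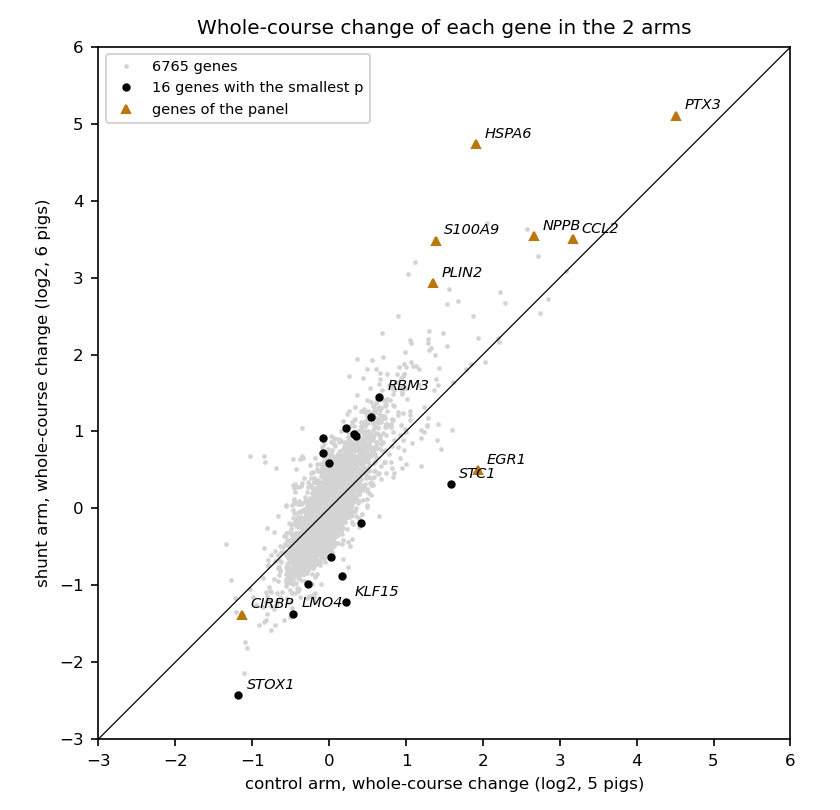
Whole-course change in the shunt arm (vertical axis, log2, mean of 6 pigs) against that in the control arm (horizontal axis, log2, mean of 5 pigs) for 6765 genes (grey), the 16 genes with the smallest p (black) and 8 genes of the panel (triangles). The line marks equal change; HSPA6, at 4.73 with the shunt and 1.91 in controls, lies above it, and STC1 and EGR1 lie below it.

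A panel of 25 genes known in overload, inflammation and stress was described whatever its values. The difference was positive in 19 and negative in 6, and 9 of the 25 had an unadjusted p under 0.05, against 999 of all 6765 genes. The panel was drawn up with earlier results of these data known. RBM3 was again the only member past the adjusted threshold. Within the shunt arm 21 of the panel passed and within the control arm 17, against 2725 and 675 of all 6765 genes. The natriuretic peptide gene NPPB rose 11.6-fold in shunt pigs and 6.35-fold in control pigs, and its difference was 0.87 ± 0.88 (SE), smaller than its error. NPPA, the gene of the atrial peptide, differed by 0.66 ± 1.12, with changes of -2.47 to 3.24 in shunt pigs and -2.57 to 0.92 in control pigs. PTX3, which encodes the pattern recognition protein pentraxin 3, rose 34.5-fold in shunt pigs and 22.8-fold in control pigs (difference 0.60 ± 0.67). CCL2, the chemokine for monocytes, rose 11.4-fold in shunt pigs and 9.01-fold in control pigs, and IL6 12.4-fold in shunt pigs and 5.93-fold in control pigs. These arms overlapped throughout.

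HSPA6, a strictly inducible chaperone of the HSP70 family, had the largest difference of the panel, 2.82 ± 1.10 (SE, unadjusted p = 0.0174, adjusted p = 0.294 in limma). It changed by 6.24, 4.40, 7.93, 0.37, 1.92 and 7.55 in the shunt pigs, against 3.25, 2.21, 2.99, 0.45 and 0.67 in the control pigs. The HSPA6 changes of 4 shunt pigs lay above all control pigs, while shunt pig 5 lay within the control range and shunt pig 4 just below it. For PLIN2, a coat protein of lipid droplets, the same 4 shunt pigs lay above all control pigs, with 3.05, 4.61, 3.99, 0.80, 1.59 and 3.54 in the shunt pigs, against 1.86, 2.27, 1.46, 0.99 and 0.20 in the control pigs (difference 1.58 ± 0.54, adjusted p = 0.235 in limma). The early response factors did not follow that pattern. MYC rose by 2.22 in shunt pigs and 2.20 in control pigs (difference 0.02 ± 0.42). ATF3 rose by 2.72 in shunt pigs and 2.85 in control pigs. EGR1 changed by 0.49 in the shunt arm, which did not pass, and rose by 1.94 in the control arm, and the difference of -1.45 ± 0.70 had an unadjusted p of 0.0507. FOS differed by -0.58 ± 0.86.

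The other panel genes ranged between these. The haem oxygenase HMOX1 differed by 0.76 ± 0.47, the metallothionein MT1A by 0.04 ± 0.66 and ANGPTL4, an inhibitor of lipoprotein lipase, by 0.39 ± 0.46 (SE). PDK4, the kinase that turns off pyruvate dehydrogenase, rose by 1.70 in the shunt arm, against 0.44 in the control arm (difference 1.26 ± 0.50). The adhesion molecule VCAM1 differed by 0.67 ± 0.36, the intercalated disc protein XIRP1 by 0.63 ± 0.38, the chemokine CXCL8 by 1.53 ± 0.70 and the thioredoxin inhibitor TXNIP by -0.33 ± 0.14. Several of these values moved by over 1.5 times when 1 pig was left out: CXCL8 then differed by 0.97 (shunt pig 1), VCAM1 by 0.41 (shunt pig 3), XIRP1 by 0.41 (shunt pig 6), PDK4 by 0.82 (control pig 5) and TXNIP by -0.22 (control pig 2). Moves ran the other way as well: without shunt pig 4 VCAM1 differed by 1.03 and XIRP1 by 1.02. MYH7 changed by -0.04 in shunt pigs and by 0.00 in control pigs, close to the top of the measured scale.

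Lists of genes show how the difference was spread. No list member passed the adjusted threshold in limma, as RBM3 is in no list. Each list is given by its count of positive differences, its median and its members at an unadjusted p under 0.05, beside the values over all 6765 genes, of which 3203 (47.3%) were positive with a median of -0.01. At an unadjusted p under 0.05, 8.29% of all genes were positive and 6.47% negative, and 16.7% rose and 23.6% fell within the shunt arm, against 4.39% and 5.59% within the control arm. A list count near these shares is no result about the list, as for the fatty acid genes. Members of a list are co-regulated and were measured in the same pigs, so the counts are descriptions. The median difference in the first interval, before the shunt, and in the later one was 0.28 and 0.04 for stretch genes. It was 0.27 and 0.08 for cytokines, 0.20 and 0.05 for heat shock and 0.37 and 0.05 for neutrophil and monocyte markers. Ribosome biogenesis had 0.18 and 0.15, oxidative phosphorylation -0.13 and -0.085 and red cell markers 0.99 and 0.48. In tricarboxylic acid cycle genes (-0.05 and -0.14) and atrial markers (0.14 and 0.30) the later median was the larger in size.

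Of ribosome biogenesis and translation factors, 28 of 30 had a positive difference, with a median of 0.33, and 16 of 30 had an unadjusted p under 0.05, all positive. Within the shunt arm 25 rose and none fell, and within the control arm 7 rose and none fell. The list mean changed by 0.30 to 1.10 in shunt pigs and by 0.18 to 0.64 in control pigs, so the arms overlapped. GNL3, a nucleolar GTPase, rose by 1.72 in shunt pigs and 0.97 in control pigs (difference 0.75 ± 0.21, SE). EIF4A1, the helicase of translation initiation, rose by 1.85 in shunt pigs and 1.13 in control pigs (difference 0.72 ± 0.23). POLR1C, a subunit of RNA polymerases that make ribosomal and transfer RNA, differed by 0.66 ± 0.20, and NOP2, a methyltransferase of ribosomal RNA, by 0.67 ± 0.21. The adjusted p-values of these 4 were 0.167, 0.198, 0.184 and 0.194 in limma.

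Oxidative phosphorylation genes lay on the other side. The difference was negative in 52 of 52, with a median of -0.21, and 11 of 52 had an unadjusted p under 0.05, all negative. Within the shunt arm 34 of the 52 fell, and within the control arm none fell or rose. The sizes were small: NDUFB3 and NDUFA9, subunits of complex I, differed by -0.31 ± 0.13 and -0.30 ± 0.12, the ATP synthase subunit ATP5F1 by -0.25 ± 0.10 and the complex III subunit UQCRB by -0.23 ± 0.09 (SE). The mean change of the list ran from -0.58 to 0.08 in shunt pigs and from -0.17 to 0.02 in control pigs, so the arms overlapped. Of tricarboxylic acid cycle genes 21 of 23 had a negative difference, with a median of -0.16 and no member at an unadjusted p under 0.05 in that direction. ACO1, the cytosolic aconitase, was positive (0.24 ± 0.11), while citrate synthase, CS, differed by -0.24 ± 0.12, and the complex II subunits SDHA and SDHB by -0.27 ± 0.14 and -0.23 ± 0.12. Without shunt pig 1 NDUFA9 differed by -0.18 and SDHA by -0.16.

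Ventricular cardiomyocyte markers lay on the same side as the energy genes. Their difference was negative in 16 of 16, with a median of -0.11, and 3 of 16 had an unadjusted p under 0.05. The list mean changed by -0.33 to 0.04 in shunt pigs and by -0.09 to 0.04 in control pigs. Some members hardly differed, such as DES (-0.01) and MYL2 (-0.03). Phospholamban, PLN, the inhibitor of the calcium pump, fell by 0.77 in shunt pigs, against -0.30 in control pigs (difference -0.47 ± 0.19, SE). Cardiac troponin T, TNNT2, differed by -0.22 ± 0.09. In a biopsy of mixed cells, fewer cells of a type and less RNA per cell cannot be told apart, and the part of these markers in the oxidative phosphorylation values was not tested.

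Of stretch, natriuretic peptide and fetal cardiac genes 11 of 16 had a positive difference, with a median of 0.54, and 7 were positive and 2 negative at an unadjusted p under 0.05. Their list mean changed by 0.30 to 1.16 in shunt pigs and by 0.06 to 0.62 in control pigs, with overlap. XIRP2, a Xin repeat protein that binds actin at the disc between cardiomyocytes, changed by 1.66, 1.03, 2.61, 1.92, 1.71 and 2.68 in the shunt pigs, against 0.77, 1.02, 1.05, -0.06 and 0.00 in the control pigs. Only the lowest shunt pig reached the highest control pig (XIRP2 difference 1.38 ± 0.33, SE, adjusted p = 0.124 in limma). ANKRD1, a strain-responsive ankyrin protein, rose by 1.03 in shunt pigs and 0.57 in control pigs (difference 0.46 ± 0.15). FHL2, a LIM-domain relative of FHL1, fell by 1.05 in shunt pigs and 0.51 in control pigs (difference -0.54 ± 0.17). Of sarcomere and Z-disc genes 5 of 26 were positive, with a median of -0.08 and 2 positive and 4 negative at an unadjusted p under 0.05. The Z-disc and thin filament genes PDLIM3 (0.84 ± 0.28) and NRAP (0.73 ± 0.24) were the positive ones among these, and MYOM1, of the M-band, differed by -0.35 ± 0.13.

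Heat shock proteins and co-chaperones were positive in 22 of 30, with a median of 0.25 and 6 of 30 at an unadjusted p under 0.05, all positive. Their list mean changed by 0.08 to 1.25 in shunt pigs and by 0.09 to 0.49 in control pigs, with overlap. HSPB8, a small heat shock protein that clears damaged sarcomere proteins with BAG3, rose by 1.65 in shunt pigs and 0.87 in control pigs (difference 0.78 ± 0.29, SE). HSPA2 differed by 0.66 ± 0.23, HSPA4 by 0.43 ± 0.15 and the lens and muscle chaperone CRYAB by 0.31 ± 0.12. Inflammatory cytokines and NF-kB targets were positive in 22 of 26, with a median of 0.22 and 4 positive and none negative at an unadjusted p under 0.05. Their list mean changed by 0.21 to 1.95 in shunt pigs and by 0.39 to 1.44 in control pigs, with overlap. The endotoxin receptor TLR4 rose by 1.31 in shunt pigs and 0.65 in control pigs (difference 0.66 ± 0.19), the cytokine IL18 differed by 0.71 ± 0.24 and LIF by 0.82 ± 0.37.

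IL-6, STAT3 and acute-phase targets were positive in 12 of 13, with a median of 0.11 and 4 positive at an unadjusted p under 0.05. STAT3, the transcription factor downstream of IL-6, rose by 1.43 in shunt pigs and 0.76 in control pigs (difference 0.67 ± 0.21, SE), and the protease inhibitor TIMP1 by 2.86 in shunt pigs and 1.55 in control pigs (difference 1.30 ± 0.53). The receptor gene IL1R1 differed by 0.91 ± 0.37. The mean of this list changed by 0.24 to 1.23 in shunt pigs and by 0.37 to 0.71 in control pigs. That of the endothelial activation list changed by 0.06 to 1.33 in shunt pigs and by 0.27 to 0.70 in control pigs, so both overlapped. Endothelial activation and leukocyte adhesion genes were positive in 14 of 19, with a median of 0.14 and 4 positive at an unadjusted p under 0.05, led by E-selectin, SELE (2.02 ± 0.69), and P-selectin, SELP (1.20 ± 0.43), which capture leukocytes on endothelium, and by the integrin chain ITGB2 (0.55 ± 0.23). Of matrix and matricellular genes 19 of 32 were positive, with a median of 0.06 and 5 positive and 1 negative at an unadjusted p under 0.05. Tenascin C, TNC, differed by 1.61 ± 0.58, TGFB3 by 0.69 ± 0.30 and periostin, POSTN, by -0.34 ± 0.15. Without shunt pig 1 the difference of TGFB3 was 0.39, and without shunt pig 2 that of ITGB2 was 0.36.

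**Figure D5:**
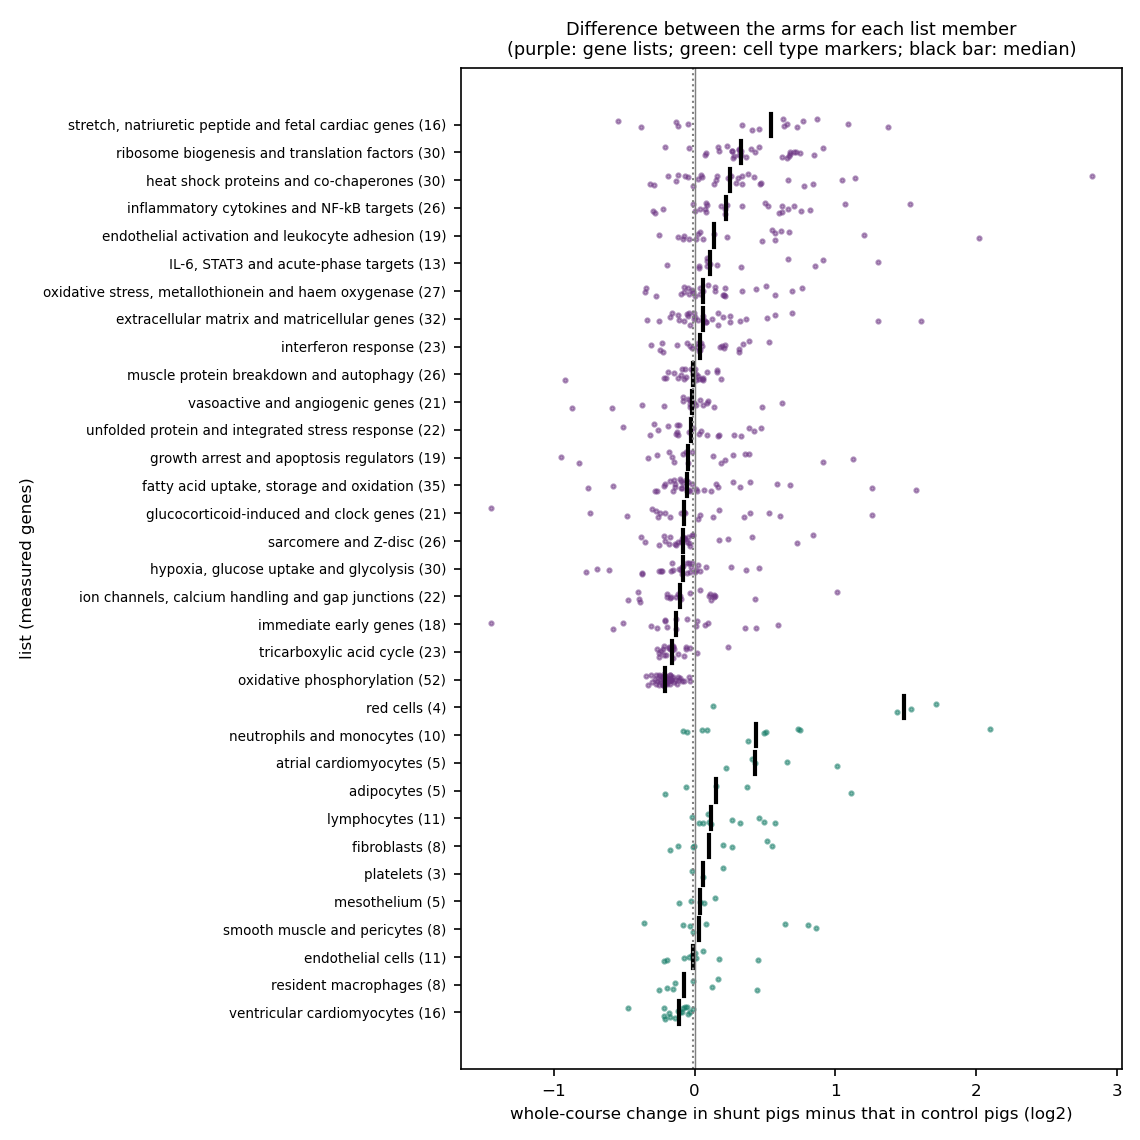
Whole-course difference between the arms (shunt minus control, log2, horizontal axis) for each measured member of 21 gene lists (purple) and 12 cell type marker lists (green), with the number of measured genes in brackets, the list median as a black bar and the median of all 6765 genes as a dotted line. The 52 oxidative phosphorylation genes all lie below 0, and 28 of the 30 ribosome biogenesis and translation genes lie above 0.

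Other metabolic lists were divided. Of hypoxia, glucose uptake and glycolysis genes 8 of 30 were positive, with a median of -0.08 and 1 positive and 4 negative at an unadjusted p under 0.05. EGLN1, the oxygen-sensing hydroxylase of hypoxia-inducible factor, differed by -0.70 ± 0.18 and PPP1R3B, which targets protein phosphatase 1 to glycogen, by -0.77 ± 0.22, while the enolase ENO1 differed by 0.46 ± 0.19 (SE). Of fatty acid genes 13 of 35 were positive, with a median of -0.05 and 4 positive and 3 negative at an unadjusted p under 0.05. CPT1A, a carnitine palmitoyltransferase that admits fatty acids to mitochondria, changed by 0.03 in the shunt arm and fell by 0.56 in the control arm, without overlap between the pigs (difference 0.58 ± 0.16, adjusted p = 0.152 in limma). SLC27A6, a fatty acid transporter of the heart, differed by -0.58 ± 0.19.

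Of glucocorticoid-induced and clock genes 9 of 21 were positive, with a median of -0.08 and 2 positive and 4 negative at an unadjusted p under 0.05. The clock activator ARNTL rose by 1.07 in shunt pigs and 0.47 in control pigs (difference 0.61 ± 0.17, SE). The transcription factor KLF9 and the nuclear receptor RORA changed by 0.02 and -0.10 in the shunt arm, which did not pass, and rose by 0.50 and 0.65 in the control arm (differences -0.48 ± 0.16 and -0.74 ± 0.24). Immediate early genes were positive in 7 of 18, with a median of -0.13 and none at an unadjusted p under 0.05. Within the shunt arm 11 of the 18 rose and within the control arm 12. IER3 rose by 2.82 in shunt pigs and 2.22 in control pigs.

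Growth arrest and apoptosis regulators were positive in 8 of 19, with a median of -0.05 and 2 positive and 4 negative at an unadjusted p under 0.05. TNFRSF12A, the receptor of TWEAK, differed by 1.12 ± 0.28 and PMAIP1, a pro-apoptotic member of the BCL2 family, by 0.91 ± 0.33. The stress-induced sestrin SESN1 differed by -0.82 ± 0.20 and the cyclin CCNG2 by -0.95 ± 0.33 (SE). Genes of ion channels, calcium cycling and gap junctions were positive in 9 of 22, with a median of -0.10 and 1 positive and 3 negative at an unadjusted p under 0.05. KCNJ8, a subunit of ATP-sensitive potassium channels, fell by 0.84 in shunt pigs and 0.45 in control pigs without overlap (difference -0.39 ± 0.10, adjusted p = 0.152 in limma). GJA5, a gap junction protein of atrium, conduction system and arterial endothelium, differed by 1.01 ± 0.31 and the channel subunit KCNIP2 by -0.39 ± 0.15.

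Oxidative stress genes were positive in 17 of 27, with a median of 0.06 and 1 positive and 2 negative at an unadjusted p under 0.05. The glutathione peroxidase GPX1 rose by 0.65 in shunt pigs, against -0.04 in control pigs, without overlap (difference 0.69 ± 0.17, adjusted p = 0.142 in limma), and the metallothionein MT3 differed by -0.36 ± 0.13. Unfolded protein and integrated stress response genes were positive in 10 of 22, with a median of -0.03 and 3 positive at an unadjusted p under 0.05. The transfer RNA synthetases WARS and AARS rose in the shunt arm, by 0.44 and 0.49, without overlap with the control pigs (differences 0.47 ± 0.12 and 0.38 ± 0.11), and the co-chaperone DNAJC3 differed by 0.42 ± 0.13. Interferon response genes were positive in 15 of 23, with a median of 0.04 and 1 at an unadjusted p under 0.05, the peptide transporter TAP1 (0.39 ± 0.19, SE). The immunoproteasome subunit PSMB8 differed by 0.32 ± 0.15.

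Protein breakdown and autophagy genes were positive in 12 of 26, with a median of -0.01 and 1 negative at an unadjusted p under 0.05, the muscle ubiquitin ligase FBXO32, which fell by 1.13 in shunt pigs, against -0.20 in control pigs (difference -0.92 ± 0.27, SE). Vasoactive and angiogenic genes were positive in 8 of 21, with a median of -0.02 and 1 positive and 2 negative at an unadjusted p under 0.05. AGTR1, the receptor of angiotensin II, differed by -0.87 ± 0.25 and the vessel-stabilising ligand ANGPT1 by -0.58 ± 0.21.

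Markers of several circulating cells had mostly positive differences. Of neutrophil and monocyte markers 8 of 10 were positive, with a median of 0.43 and 4 at an unadjusted p under 0.05. The list mean changed by 0.34 to 1.37 in shunt pigs and by 0.17 to 0.42 in control pigs. S100A9, an abundant granulocyte protein, changed by 3.48, 5.28, 4.86, 1.94, 1.81 and 3.53 in the shunt pigs, against 1.11, 2.14, 1.07, 1.09 and 1.53 in the control pigs. The S100A9 arms overlapped at shunt pigs 4 and 5 (difference 2.10 ± 0.58, SE, adjusted p = 0.162 in limma). S100A8, its partner, differed by 0.75 ± 0.30 and S100A12 by 0.74 ± 0.21. Other markers of the list did not follow: CD14 and ELANE differed by 0.09 and 0.05, and the negative ones were ITGAM (-0.08) and MMP9 (-0.05). The part of these cells in the values of the cytokine and adhesion lists was not tested.

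Red cell markers were positive in 4 of 4, with a median of 1.49 and 3 at an unadjusted p under 0.05, and their list mean changed by -0.46 to 1.37 in shunt pigs and by -1.58 to 0.10 in control pigs. ALAS2, the erythroid enzyme of haem synthesis, changed by 0.03, 0.96, 2.12, -0.74, 1.04 and 0.69 in the shunt pigs, against -0.15, -1.79, -2.10, -0.93 and -0.20 in the control pigs (difference 1.72 ± 0.49, adjusted p = 0.167 in limma). The globin HBM differed by 1.43 ± 0.44 and the haemoglobin chaperone AHSP by 1.54 ± 0.53, while the beta globin HBB differed by 0.13 ± 0.20 (SE). None of the 4 passed within either arm. Lymphocyte markers were positive in 10 of 11, with a median of 0.11 and 3 at an unadjusted p under 0.05. They were dim, with a mean level of 5.07, while the array medians ran from 6.10 to 6.17. CD3G, of the T cell receptor complex, and CD8A changed by 0.10 and -0.10 in the shunt arm, which did not pass, and fell by 0.39 and 0.67 in the control arm (differences 0.49 ± 0.14 and 0.57 ± 0.22). IL7R differed by 0.46 ± 0.19.

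Resident macrophage markers were positive in 3 of 8, with a median of -0.08 and 1 at an unadjusted p under 0.05. That was the haemoglobin scavenger receptor CD163, which rose by 1.12 in shunt pigs and 0.68 in control pigs (difference 0.44 ± 0.20, SE). Smooth muscle and pericyte markers were positive in 4 of 8, with a median of 0.03 and 2 positive and 1 negative at an unadjusted p under 0.05. Calponin, CNN1, rose by 1.74 in shunt pigs and 0.88 in control pigs (difference 0.86 ± 0.25), and the actin ACTA2 rose by 0.56 in shunt pigs, against -0.24 in control pigs (difference 0.81 ± 0.30), with shunt pig 1 at 2.48 and the other shunt pigs at -0.09 to 0.46. Without shunt pig 1 the difference of ACTA2 was 0.42. Adipocyte markers were positive in 3 of 5, with a median of 0.15 and 2 positive at an unadjusted p under 0.05, RETN (1.11 ± 0.47) and the lipase LIPE (0.38 ± 0.17), which were 0.63 without shunt pig 3 and 0.24 without control pig 1. Atrial cardiomyocyte markers were positive in 5 of 5, with a median of 0.43 and 1 at an unadjusted p under 0.05, GJA5. Their list mean ranged from -0.62 to 0.98 in shunt pigs and from -1.04 to 0.26 in control pigs. Endothelial (5 of 11 positive, median -0.01), fibroblast (4 of 8, median 0.10), platelet (2 of 3, median 0.06) and mesothelial markers (3 of 5, median 0.04) had no member at an unadjusted p under 0.05.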

How the data were processed

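Expression was measured in right ventricular biopsies of 11 pigs, with 1 Affymetrix array per biopsy. The authors deposited RMA values on a log2 scale, 1 per probe set, per the submitters' processing notes. The software version and the set of arrays normalised jointly were not given in the sources used here. Deposited values spanned 2.21 to 15.2 and were not rescaled. The 124 control probe sets were left out of the tests.

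Symbols came from the platform annotation, which is old: 10069 probe sets had 1 symbol, 198 several and 13732 none, and 9961 matched a RefSeq entry. Each of 6765 genes was represented by its brightest probe set with 1 symbol, by mean over the 33 arrays. No genome build was used.

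Limma 3.58.1 in R 4.3.3 (lmFit and eBayes) was fitted to all 33 arrays, with pig as a fixed block and, within each arm, a term for 120 min and for the last biopsy (18 residual degrees of freedom). The baseline comparison used the 11 baseline arrays. Pairing came from the pig named in the labels. After removal of group means, arrays of the same pig had a median correlation of 0.395, those of different pigs -0.05, and 28 of 33 arrays were nearest to their own pig. Tests were two-sided, with Benjamini-Hochberg adjustment over 23999 probe sets and a threshold of 0.05. RNA quality was tested by exact permutation over pigs. The models were tested on simulated data.

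Genes were named by rule: in each direction the 12 genes past the threshold with the greatest change, or, where fewer than 5 passed, the 8 of smallest p; up to 4 members of each list by smallest p; and a panel of 25. Members and lists were chosen with earlier results of these data known. Alternatives covered scaling, pairing, arrays fitted, moderation, dim probe sets, weights (statmod 1.5.0 for random blocks), a minimum change of 1.5-fold, probe sets per gene, array sets and each pig left out.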

Additional observations from a re-analysis of the deposited data

Results flagged for a closer look

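RBM3 differed between the arms by a test of the difference itself, with a change 0.80 larger in shunt pigs (adjusted p = 0.0200 in limma). Within an arm, 1 pig lay far from the others in 16 of 228 groups, over 114 genes and 2 arms, where chance flags about 1 in 20 independent groups. The groups come from the same 11 pigs and are not independent.

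Control pig 2 was the pig apart in 9 of the 16. Its whole-course change was 0.79 in RBM3, against 0.60 to 0.63 in the other control pigs, 2.79 in TIMP1 (others 0.94 to 1.41) and -1.10 in SESN1 (others -0.46 to -0.21). In the ribosome biogenesis and translation genes it was 1.19 in POLR1C, 1.13 in NOP2 and 1.83 in EIF4A1, against highest values of 0.47, 0.37 and 1.11 in the other control pigs. It was -0.0781 in UQCRB, -0.75 in PLN and 0.55 in TAP1, each beyond the other control pigs. The other control pig apart was pig 1 in LIPE (-0.82, others -0.24 to -0.08).

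Shunt pig 1 stood apart in NDUFA9 (-0.87, others -0.29 to 0.02), MT3 (-0.91, others -0.42 to -0.16) and ACTA2 (2.48, others -0.09 to 0.46). Shunt pig 4 changed least in FHL2 (-0.59, others -1.35 to -1.07) and ATP5F1 (-0.0115, others -0.34 to -0.27), and shunt pig 2 was highest in PSMB8 (0.54, others -0.12 to 0.06).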

How the results depend on the processing

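The count of probe sets called for the whole course, 1 positive and 0 negative, depended on the fit. It was the same with arrays centred, quantile normalised, pig as a random block, a trend with robust moderation, or the 30% dimmest left out. STOX1, LIF, ANGPT1, S100A12, CD3G and IL7R were among those dimmest probe sets. No probe set was called with no replicate block (RBM3 adjusted p = 0.315), on the 22 arrays compared alone or on the changes of each pig with no array set block (chosen after seeing the data; 0.156 in each), with a minimum difference of 1.5-fold, or with shunt pigs 1 to 4 as the only shunt pigs (0.0526). Shunt pigs 5 and 6 alone gave 0 positive and 1 negative call, and RBM3 an adjusted p of 0.455. A gene as 1 probe set or as a mean gave 2 positive and 1 negative calls (RBM3 and FHL1, and STOX1), as fewer features were tested. Array weights gave 96 and 93.

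Array set as a random block gave 348 positive and 486 negative calls for the whole course, 1237 and 1080 for the first interval and 84 and 119 for the later one. Its estimated correlations were negative (-0.113, -0.167 and -0.173), which shrinks the error of a difference. In the intervals no other alternative made a call, leaving out pigs included; the 22-array fit holds no interval. With each pig left out, the positive calls ranged from 0 to 148 and the negative from 0 to 126. They were 148 and 126 without shunt pig 4, 48 and 70 without shunt pig 5, 4 and 0 without control pig 2, and 3 and 2 without control pig 3. The RBM3 call was lost without shunt pig 1, 2, 3 or 6 or control pig 1, 4 or 5. The cause was not tested.

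Leaving out 1 pig moved the difference by over 1.5 times in 25 of 114 named genes, among them 16 of the 25 panel genes. Of the 114, 7 turned sign under some alternative. None of the 16 genes with the smallest p moved so far without 1 pig or turned sign. They were chosen for differences large beside their errors, which favours this. With shunt pigs 1 to 4 as the only shunt pigs RBM3 differed by 0.86, and with shunt pigs 5 and 6 by 0.68. Over the alternatives other than leaving out 1 pig, KLF15 ranged from -1.80 to -0.73 and CD200 from 0.45 to 0.97. Outside the 16, IL6 ranged from 0.01 to 1.60 and ENO1 from 0.01 to 0.69 over the same alternatives. MYC turned under quantile normalisation (-0.0279) and in shunt pigs 5 and 6 (-0.17), ATF3 under array weights (0.19) and in shunt pigs 5 and 6 (0.61), and NPPA with shunt pigs 5 and 6 left out together (-0.22). With shunt pigs 1 to 4 left out together, MT1A (-0.0667), CIRBP (0.21), ANGPTL4 (-0.0882) and HBB (-0.0635) turned. With a pig left out MYC ranged from -0.20 to 0.32, ATF3 from -0.56 to 0.63 and MT1A from -0.35 to 0.36; the 3' to 5' difference ranged from -0.0491 to 0.0406 for GAPDH and from -0.0552 to 0.145 for actin. The cause was not tested.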

Other observations

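Of 23999 probe sets, 10 were up in every shunt pig and down in every control pig, and 8 the other way. Whether such small counts exceed those of unrelated directions was not tested. They include 5 named genes, chosen after their values were seen. TNFAIP8, a regulator of cell survival, differed by 0.99 ± 0.27 (SE), PIK3R5, a regulatory subunit of a phosphoinositide kinase of leukocytes, by 0.38 ± 0.12 and the mitochondrial carrier SLC25A39 by 0.35 ± 0.12. The mitotic cyclin CCNB1 differed by -0.63 ± 0.22 and the clathrin adaptor subunit AP1B1 by -0.20 ± 0.08. Their unadjusted p-values ran from 0.00131 to 0.0203, none of the 5 passed the adjusted threshold in limma, and the other probe sets of TNFAIP8 and AP1B1 gave 0.10 and 0.02.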
